A study of Mus musculus with 54 samples.

Results

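Goblet cells are the secretory cells that lay down the mucus of the gut, and 8 of their secreted or secretory-pathway genes were followed here: Muc2, Tff3, Fcgbp, Zg16, Agr2, Clca1, Spink4 and Retnlb. They were taken by name from 48059 named entries of the deposited mRNA table and from the gene lists of the single-cell matrices, and all 8 were present in both. The series holds 54 mouse small intestine samples in 16 groups. Values for the 8 genes come from 16 mRNA libraries in 4 groups of 4 and from 4 single-cell samples. The mRNA libraries were made from crypt cells of C57BL/6J mice sorted for low Sox9-EGFP, a green fluorescent reporter of the Sox9 gene whose dim fraction is used to enrich for crypt stem and progenitor cells. Their groups are mice on a chow diet, mice on a high fat diet, mice labelled conventionalized and germ-free mice, and no age, diet composition or pooling of animals is stated for them. The single-cell samples are dissociated small intestinal cells of 12-month-old mice of strain C57BL6/2J, as the labels spell it, and each of 2 numbered sets holds 1 sample of miR-375 knockout mice (KO) and 1 of wild-type mice (WT). Nothing in the labels says whether samples of a group came from separate animals, so p-values measure only the spread between these samples.

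As background, the mucus gel of the intestine is built from MUC2, a very large O-glycosylated mucin that forms a polymer network after secretion. FCGBP and CLCA1 are further abundant proteins of that gel, CLCA1 being a metalloprotease that can process MUC2, and ZG16 is a lectin-like protein that binds Gram-positive bacteria. TFF3 is a trefoil peptide linked to repair of the epithelium, AGR2 is a disulfide isomerase of the endoplasmic reticulum needed for mucin folding, SPINK4 is a small Kazal-type peptide, and RETNLB (RELM-beta) is a goblet cell protein best known from the colon and from type 2 immune responses to worms.

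Sequence upstream of the start was on hand for 3 of the 8 genes (RefSeq, GRCm38). The 250 bases before the start are shown for these 3, which are Muc2, Fcgbp and Agr2. Capitals mark matches, on either strand, to the TATA box letters TATAAA, the forkhead letters TGTTTAC, the E-box CAGCTG, and the unfolded protein response element TGACGTGG. The Muc2 window is chr7:141690090-141690339, the Fcgbp window chr7:28070986-28071235 and the Agr2 window chr12:35992675-35992924, all on the plus strand.
Muc2: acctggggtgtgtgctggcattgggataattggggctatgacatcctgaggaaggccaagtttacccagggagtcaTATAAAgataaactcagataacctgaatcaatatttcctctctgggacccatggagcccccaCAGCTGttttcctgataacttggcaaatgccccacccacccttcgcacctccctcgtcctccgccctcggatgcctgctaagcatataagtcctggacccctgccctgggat
Fcgbp: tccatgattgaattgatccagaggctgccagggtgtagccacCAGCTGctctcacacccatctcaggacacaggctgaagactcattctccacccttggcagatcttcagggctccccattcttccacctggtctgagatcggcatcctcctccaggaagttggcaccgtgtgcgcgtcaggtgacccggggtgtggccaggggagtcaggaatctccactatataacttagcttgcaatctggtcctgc
Agr2: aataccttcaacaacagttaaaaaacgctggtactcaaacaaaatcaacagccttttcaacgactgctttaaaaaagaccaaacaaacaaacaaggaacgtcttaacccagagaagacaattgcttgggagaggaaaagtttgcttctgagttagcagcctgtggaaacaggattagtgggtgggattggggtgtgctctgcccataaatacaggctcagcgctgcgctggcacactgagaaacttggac
The Muc2 window held the E-box letters starting at position -112 and the TATA letters at position -174, counted back from the start. The Fcgbp window held the E-box letters at position -208, and the Agr2 window held none of the 4 motifs. Over all 32851 promoter windows of this length in the same table, 13.0% held the E-box letters, 12.4% the TATA letters, 3.17% the forkhead letters and 0.563% the response element. The E-box is the kind of motif read by basic helix-loop-helix factors, the class of Atoh1, and a match is a description of letters only. GC content was 53.2% for Muc2, 56.4% for Fcgbp and 44.4% for Agr2.

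In the annotation (GENCODE, GRCm38), Muc2, Fcgbp and Zg16 lie on chromosome 7, Muc2 at 141690340-141754693 and Fcgbp at 28071236-28120862 on the plus strand, and Zg16 at 127050156-127087328 on the minus strand, where 2 non-coding genes lie on the other strand. Tff3 lies on chromosome 17 (31125306-31129646, minus), Agr2 on chromosome 12 (35992907-36004087, plus), Clca1 on chromosome 3 (145003817-145032776, minus), Spink4 on chromosome 4 (40920052-40931395, plus) and Retnlb on chromosome 16 (48816856-48818892, plus). Muc2 is marked there as a fragmented locus with a longest coding transcript of 2926 bases, so no level per length is given for it.

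The mRNA libraries held between 10680267 and 19117886 normalized counts each over named genes, a signal that the authors divided by a factor per library, so levels are given as normalized counts. The single-cell samples gave 1164 (WT) and 1210 (KO) epithelial cells in set 1 and 1648 and 2280 in set 2 after filtering, with median depths from 16007 to 23879 UMIs per cell. The sets stood apart: in set 2 the median share of mitochondrial UMIs over all barcodes was 37.9% to 40.9%, against 5.62% to 5.90% in set 1. WT and KO shared 1 cell barcode in set 1 and 12 in set 2. No entry for miR-375 is in the gene lists of the matrices, so the knockout label was not checked here. One mRNA library also stood apart for the mucus genes. Conventionalized replicate 1 had the highest value of all 16 libraries for 6 of the 7 members that passed a mean of 10 normalized counts. Member differences from the conventionalized group are given with and without it. The F test, the order of group means and the correlations across libraries include it.

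**Figure D1:**
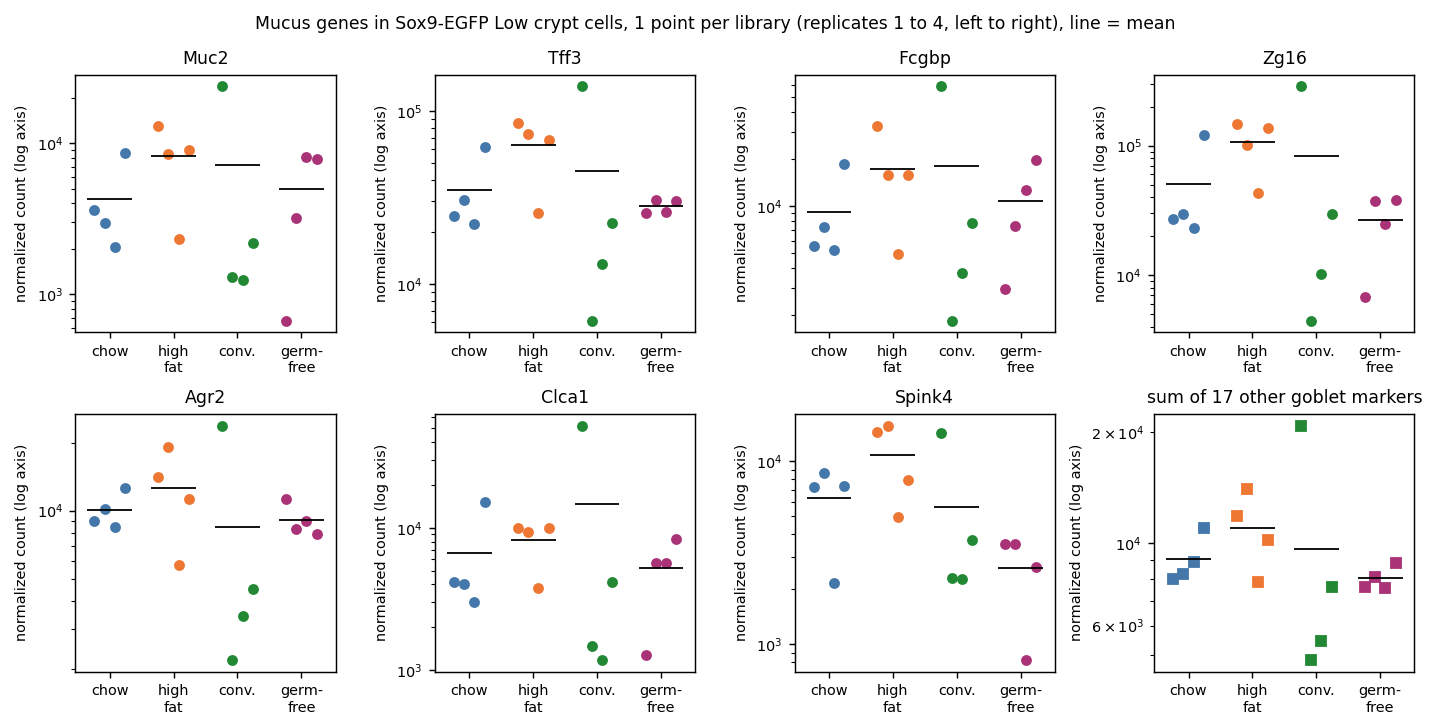
Normalized counts (log axis) of 7 mucus genes and the sum of 17 other goblet cell markers in each of the 16 mRNA libraries, by group, with the group mean as a line. Conventionalized replicate 1 lies above the other 3 conventionalized libraries in every panel, and high fat diet replicate 3 lies below the other 3 high fat diet libraries.

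The mucus genes were abundant in these crypt cells, and together they took between 0.165% and 3.86% of a library. Muc2, the gel-forming mucin, measured 3636, 2947, 2043 and 8571 normalized counts in chow replicates 1 to 4, and 13079, 8454, 2313 and 9074 in the high fat diet replicates. It measured 23781, 1312, 1244 and 2174 in the conventionalized and 670.3, 3182, 8070 and 7864 in the germ-free replicates. The groups overlapped, and the range from germ-free replicate 1 to conventionalized replicate 1 was 35.5-fold. Fcgbp, the other large gel protein, ran from 1840 normalized counts in conventionalized replicate 2 to 58600 in conventionalized replicate 1, a 31.8-fold range. Its group means were 9211 ± 6412 (SD, n = 4) on chow, 17263 ± 11318 on high fat diet, 17980 ± 27193 in conventionalized and 10720 ± 7228 in germ-free mice.

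Zg16, the bacteria-binding lectin, had the widest range of the 7 genes. It measured 27083, 29914, 23237 and 120876 normalized counts on chow and 146509, 101843, 43077 and 137835 on high fat diet. In conventionalized mice it measured 287695, 4451, 10154 and 29842, and in germ-free mice 6803, 37613, 24660 and 37921. The 64.6-fold range lay within the conventionalized group. In conventionalized replicate 1 Zg16 had the highest value of any named gene, while in replicate 2 it ranked 382. Clca1, the mucus metalloprotease, ran 44.3-fold, from 1180 normalized counts in conventionalized replicate 3 to 52288 in replicate 1.

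Tff3, the trefoil peptide, measured 24849, 30611, 22128 and 62092 normalized counts on chow and 85906, 73854, 25796 and 68535 on high fat diet. It measured 139414, 6125, 13074 and 22659 in conventionalized mice and 25649, 30712, 26231 and 30008 in germ-free mice. The germ-free libraries therefore lay within 1.20-fold of each other for Tff3, while they spanned 12.0-fold for Muc2, 6.76-fold for Fcgbp, 6.52-fold for Clca1 and 5.57-fold for Zg16. In germ-free replicate 1, Muc2 stood at 0.0261 of the Tff3 value, against 0.0897 to 0.308 in the other 15 libraries. Agr2, the folding enzyme, had the narrowest range of the 7 genes, 10.9-fold, and within the germ-free group its values lay within 1.43-fold of each other.

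Spink4, the Kazal-type peptide, followed the gel proteins less closely. Its values were 7209, 8638, 2150 and 7309 normalized counts on chow, 14469, 15648, 4931 and 7931 on high fat diet, 14196, 2302, 2264 and 3721 in conventionalized mice, and 3517, 3522, 820.5 and 2626 in germ-free mice. Every high fat diet library was above every germ-free library for Spink4 and for Zg16, a pattern seen in 19.8% of 19281 genes between those groups, and no test was made of that pair. Retnlb was close to absent. It was listed at 0 in 10 of 16 libraries and reached at most 3.72 normalized counts, which is 4 reads if the most frequent low value of a library is worth 1 read, and it failed the filter on low values. The high fat diet libraries were all listed at 0 for Retnlb, chow replicates 1, 2 and 4 at 3.72, 0.764 and 3.25, conventionalized replicate 1 at 3.42, and germ-free replicates 3 and 4 at 1.57 and 2.24.

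Per kilobase of the longest coding transcript, the mean over the 16 libraries was highest for Zg16 (92455 normalized counts per kilobase) and Tff3 (87176). It was 15940 for Spink4, 12823 for Agr2, 2384 for Clca1, 1740 for Fcgbp and 1.34 for Retnlb. By geometric mean, high fat diet was the highest of the 4 groups for all 7 members that passed the filter, and conventionalized or germ-free the lowest. A moderated F test over the 4 groups (limma, Benjamini-Hochberg adjusted over all genes) called 4775 of 18682 genes, or 25.6%, and 0 of the 7 members. Spink4 came closest (F = 4.18, limma adjusted p = 0.0674), followed by Zg16 (F = 2.04, adjusted p = 0.240), while adjusted p was 0.308 to 0.832 for the other 5.

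On the high fat diet against chow, all 7 tested members had a higher mean log2 level, except that Agr2 was lower (-0.12) after quantile normalization, and none passed the test. Zg16 differed by +1.32 on the log2(value + 1) scale (SE 0.57, 95% interval 0.06 to 2.58, adjusted p = 0.171), Muc2 by +0.91 (SE 0.55, adjusted p = 0.328) and Tff3 by +0.86 (SE 0.44, adjusted p = 0.243). The values were +0.83 for Fcgbp, +0.79 for Spink4, +0.54 for Clca1 and +0.21 for Agr2, whose interval ran from -0.52 to 0.94. The limma test called 135 of 16421 genes (0.822%), 34 higher and 101 lower, so the members' 0 of 7 is read against a low background. The groups overlapped for all 7 members, while 8.81% of genes were higher and 7.36% lower without overlap. The median of the 7 members was +0.83, beside +0.05 over all genes tested, of which 54.4% were higher. Chow replicate 4 was above the other 3 chow libraries for 6 of the 7 members. Without it the Zg16 difference was +1.87 (adjusted p = 0.151), the Clca1 difference +1.05 (adjusted p = 0.195) and the Muc2 difference +1.31 (adjusted p = 0.212), and still no member was called.

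**Figure D2:**
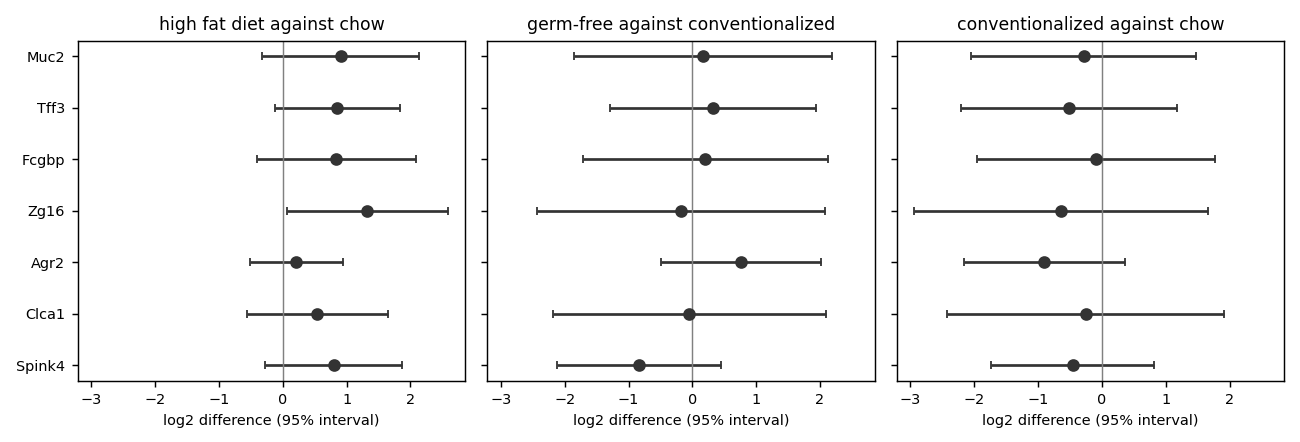
Log2 differences of 7 mucus genes in the 3 mRNA comparisons, with 95% intervals from limma (4 libraries per group). All 7 points lie above 0 for high fat diet against chow (Agr2 falls to -0.12 under quantile normalization, not drawn), and the interval of Zg16 there runs from 0.06 to 2.58 before adjustment.

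Markers of other cell types moved in the same comparison. Of 12 tuft cell markers, 6 were lower on the high fat diet by limma's adjusted p and none higher, and their summed level was 1811 to 9237 normalized counts against 15429 to 33805 on chow. Of 14 enteroendocrine markers 1 was lower, with summed levels of 34573 to 136578 against 176934 to 812421. These marker calls were fragile. Limma called 0 genes when any 1 high fat diet library, chow replicate 1 or chow replicate 4 was left out. It also called 0 without a variance trend, so the marker calls were lost in all those fits. The 17 goblet cell markers that are not members gave 12 higher and 5 lower with 0 called, and their sum was 7851 to 14050 on the high fat diet and 8001 to 11008 on chow. The Paneth cell markers, 8 of 12 higher and 0 called, summed to 264889 to 869678 against 69605 to 749789. No defining marker of these 4 cell types was at 0 throughout a group. In such sorted bulk samples, fewer cells of a type and less RNA per cell cannot be told apart, and the part of these shifts in the mucus gene values was not tested.

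Genes that act with the members were followed through 3 lists. Of the 34 genes of the mucus machinery (transcription factors, glycosyltransferases, folding enzymes and ion channels of goblet cells), 32 were tested between high fat diet and chow, and 0 were called, with 17 higher and 15 lower. The largest differences were in Slc26a3, a chloride and bicarbonate exchanger (316 ± 171 against 118 ± 43.5 normalized counts, +1.32, adjusted p = 0.0969), and St6galnac1, a sialyltransferase of mucin glycans (21.1 ± 4.53 against 9.28 ± 3.94, +1.19, adjusted p = 0.137). Of 7 tested genes among other mucins and trefoil factors 0 were called, with Muc1 at -1.09 (adjusted p = 0.353) and Muc20 at -0.85 (adjusted p = 0.222). Of 6 tested genes of the type 2 cytokine axis, the pathway by which tuft cell Il25 and interleukin 13 act on goblet cells, 3 fell and 0 rose. Il25 fell from 67.5 ± 29.7 to 12.9 ± 3.99 normalized counts (-2.24, SE 0.41, limma adjusted p = 0.0442). Pou2f3, the transcription factor that defines tuft cells and is also on the tuft marker list, fell from 887 ± 103 to 292 ± 116 (-1.69, SE 0.29, adjusted p = 0.0389). Il13ra1, a receptor subunit for interleukin 13, fell from 1639 ± 241 to 829 ± 96.6 (-0.98, SE 0.15, adjusted p = 0.0371). These calls were fragile. The Il25 and Pou2f3 calls were lost in 7 of the 8 fits that left out 1 library, every one except that without chow replicate 2, with adjusted p from 0.0279 to 0.111 for Il25 and 0.0279 to 0.101 for Pou2f3, and the Il13ra1 call was lost in 6 of the 8.

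Between germ-free and conventionalized mice, no member was called, and limma called 453 of 20214 genes (2.24%), 394 higher and 59 lower. All 7 members overlapped between the groups, while 6.26% of genes were higher and 6.21% lower without overlap. Agr2 was +0.76 (SE 0.58, 95% interval -0.49 to 2.02, adjusted p = 0.433) and Spink4 -0.84 (SE 0.59, interval -2.12 to 0.44, adjusted p = 0.403). Tff3 was +0.32, Fcgbp +0.21, Muc2 +0.17, Clca1 -0.05 and Zg16 -0.17, each with an SE of 0.74 to 1.04. The intervals of Muc2, Fcgbp, Clca1 and Zg16 were wide, from -1.85 to 2.19 for Muc2 and from -2.43 to 2.08 for Zg16. The members' median was +0.17, beside +0.11 for all genes tested.

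These values moved with single conventionalized libraries, in opposite directions. Without replicate 1, Agr2 was +1.48 in germ-free mice (SE 0.33, adjusted p = 0.0646), Tff3 +1.20 (adjusted p = 0.305), Fcgbp +1.20 (adjusted p = 0.421), Muc2 +1.16 (adjusted p = 0.477), Clca1 +1.14 (adjusted p = 0.427) and Zg16 +1.00 (adjusted p = 0.530), while Spink4 was -0.24 (adjusted p = 0.821). Without replicate 2, Zg16 was -1.003, Clca1 -0.57, Fcgbp -0.47, Tff3 -0.30 and Muc2 -0.23. Without replicate 3, Clca1 was -0.68 and Zg16 -0.61. Single germ-free libraries also turned signs. Without germ-free replicate 1, Zg16 and Clca1 were higher in germ-free mice. Muc2 was lower without germ-free replicate 3 or 4, and Fcgbp without germ-free replicate 4. No member was called in any of these fits. In replicate 1 the 17 other goblet markers summed to 20799 normalized counts, against 4847, 5466 and 7612 in the other 3 conventionalized libraries and 7586 to 8857 in the germ-free ones.

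Of 32 mucus machinery genes tested between germ-free and conventionalized mice, Foxa1, a forkhead factor of secretory cells, was called. It rose to 2798 ± 1017 normalized counts from 1183 ± 255 (+1.20, SE 0.28, adjusted p = 0.0474), and lost the call in 7 of 8 fits that left out 1 library (adjusted p from 0.0360 to 0.154). No gene fell. Among the other mucins and trefoil factors 0 of 7 were called, with Muc6 at +1.64 (adjusted p = 0.333) and Tff2 at +1.07 (adjusted p = 0.627). Of the type 2 axis 0 of 7 were called, with Il1rl1 at +1.75 (adjusted p = 0.344) and Stat6 at -0.60 (adjusted p = 0.213). Goblet markers gave 8 higher and 9 lower of 17, with 0 called. By the same test, 9 of 14 enteroendocrine markers were higher and 3 of 13 cycling markers lower. Limma called 0 genes without a variance trend and 1 gene without germ-free replicate 1, so at most 1 of these marker calls remained there. Enteroendocrine markers summed to 359034 to 767277 normalized counts in germ-free and 69681 to 205642 in conventionalized mice, and cycling markers to 5693 to 29964 against 36760 to 52627. Their part in the mucus gene values was not tested.

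In conventionalized mice against the chow group, all 7 members had a lower mean log2 level, from -0.09 for Fcgbp to -0.90 for Agr2 (SE 0.58, adjusted p = 0.567). None was called, and limma called 17 of 17941 genes (0.0948%). The median difference over all genes tested was +0.04. The groups overlapped for all 7, while 2.17% of genes were higher and 4.38% lower without overlap. Zg16 was -0.64 (SE 1.05) and Tff3 -0.51 (SE 0.77). Without conventionalized replicate 1 the differences grew to -1.81 for Zg16 (adjusted p = 0.397), -1.62 for Agr2 (adjusted p = 0.0846), -1.44 for Clca1, -1.39 for Tff3, -1.28 for Muc2, -1.08 for Fcgbp and -1.06 for Spink4, with 0 members called. Without conventionalized replicate 2, 5 of the 7 members were instead higher than in chow, Fcgbp at +0.58, Clca1 at +0.27, Zg16 at +0.19 and Muc2 and Tff3 at +0.11. Muc2, Clca1 and Fcgbp were also higher without conventionalized replicate 3 (+0.14, +0.38 and +0.25) or without chow replicate 4 (+0.12, +0.26 and +0.32). The 3 gene lists held no called gene here, out of 32 mucus machinery genes (24 lower, Capn9 at -1.11 and St6galnac1 at +1.01), 6 other mucins and trefoil factors (Muc3 at +0.88, Muc6 at -0.77) and 7 type 2 axis genes (Il25 at -1.84, Pou2f3 at -1.70). This comparison shares its libraries with the other comparisons, so the 3 sets of values are not independent.

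Across the 16 libraries the members went up and down together, with Spink4 in the weaker pairs. For the 15 pairs without Spink4, Pearson's r of log2(value + 1) was 0.69 to 0.95, highest for Muc2 with Fcgbp, and for the 6 pairs with Spink4 it was 0.49 to 0.73. Agr2 reached 0.92 with Tff3, 0.69 with Muc2 and 0.76 with Fcgbp. These are descriptions over 16 libraries that share groups and scaling, and conventionalized replicate 1 lies at their upper end. Of 18675 other genes with a mean of at least 10, the 8 most like the members' mean profile were Tpsg1 (r = 0.96), Atoh1 (0.95), Rep15 (0.93), Spdef (0.92), Kcnk6 (0.92), Chst4 (0.91), Klk1 (0.90) and Ccdc71l (0.88). Tpsg1, Rep15, Spdef and Klk1 are on the goblet marker list. Of its 17 genes 13 had r over 0.5 (median 0.69, beside -0.04 over all genes), while Foxa3 was at 0.04, Bace2 at 0.18 and Sytl2 at -0.11. Atoh1, the factor that directs secretory fate, and Spdef, a goblet cell factor, are on the mucus machinery list. With group means removed, r for these 8 was between 0.89 and 0.97. For single members the nearest gene was Rep15 for Muc2 (0.89) and Fcgbp (0.93), Klk1 for Tff3 (0.93), Tpsg1 for Zg16 (0.91), Chst4 for Clca1 (0.93), Hsd17b2 for Agr2 (0.91) and Selenos for Spink4 (0.96).

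In the single-cell samples, goblet-like cells were found by clustering each set with the 8 members left out, and naming clusters from 17 other goblet markers, all of which were at least 2-fold higher in each of the 4 clusters so named. The chemokine gene Ccl9 was among the 10 leading genes of all 4 clusters and Ccl6 among those of 3. In set 1 they held 172 WT cells (14.8% of epithelial cells) and 231 KO cells (19.1%), and in set 2 they held 363 (22.0%) and 456 (20%). The KO to WT difference in that share was +0.08 on the log2 scale and did not pass edgeR's quasi-likelihood test over the 4 samples. It was +0.41 without WT set 2, where it passed the 0.05 threshold, and -0.16 without WT set 1, where it did not, so its size and direction turned on the single WT sample left in, whose spread is then assumed to be that of the KO samples. The members made up 11.8% (WT) and 14.4% (KO) of all UMIs of goblet-like cells in set 1, and 11.9% and 13.3% in set 2. The highest share in a single cell was 63.7%.

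A UMI counts 1 tagged transcript end. UMI counts scaled to the class total (CPM, the usual counts-per-million scale) therefore do not grow with gene length. They can be set side by side across genes whose gene models are complete. Muc2 is marked above as a fragmented locus, and whether its UMIs are fully counted was not tested. Its CPM is therefore compared between samples and cell classes, and not ranked against other genes. Values below are in the order WT and KO of set 1, then WT and KO of set 2. In goblet-like cells Tff3 gave 42789, 49946, 24301 and 27204 CPM. Zg16 gave 23835, 36955, 35885 and 49663, Spink4 26912, 28943, 20254 and 17558, and Agr2 15583, 19146, 21446 and 20448. Tff3 was the most abundant of all genes in set 1 and Zg16 in set 2. Fcgbp gave 4914, 5354, 8587 and 10169, Muc2 3393, 3027, 6863 and 6362, and Clca1 726, 1021, 1826 and 1582. Tff3 ran at 0.545 to 0.568 of its set 1 level in set 2 while Muc2 ran at 2.02 to 2.10 times it, in both genotypes, so the order of the genes depends on the set. Retnlb had 0 UMIs in both set 1 samples, 10 in WT set 2 and 3 in KO set 2. In set 1 that allows at most 0.923 CPM in WT goblet-like cells (3 counts of the total, for counting error only).

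**Figure D3:**
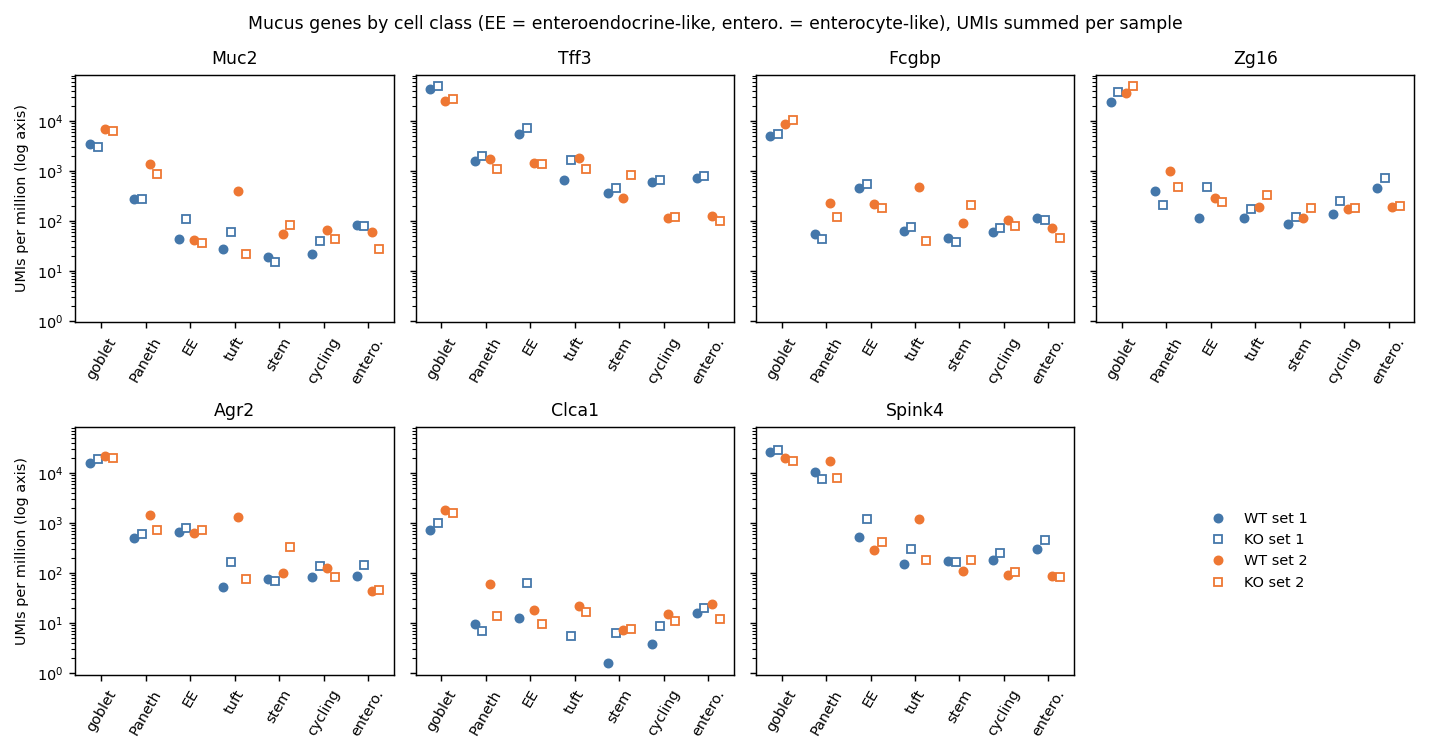
CPM (log axis) of 7 mucus genes in 7 cell classes of each sample, with circles for WT, open squares for KO and colours for the sets. Goblet-like cells are highest in every panel, Paneth-like cells come within 25.8% to 84.6% of them for Spink4, and Clca1 in tuft-like cells of WT set 1 is at 0 and not drawn.

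Most of the epithelium's UMIs of each of these 7 members lay in goblet-like cells, with the lowest shares for Spink4. The share in goblet-like cells was 92.1% to 97.6% for Zg16, 92.0% to 96.5% for Clca1, 91.9% to 95.7% for Agr2, 89.9% to 96.1% for Fcgbp, 86.9% to 94.7% for Tff3, 82.0% to 89.1% for Muc2 and 57.7% to 72.1% for Spink4. Paneth-like cells, which secrete antimicrobial peptides at the crypt base, held most of the rest of Spink4, at 10387, 7480, 17133 and 7796 CPM. That was 38.6%, 25.8%, 84.6% and 44.4% of the goblet level of the same sample. The 84.6% is from WT set 2, whose Paneth-like cells included some with many member UMIs (share given below). The part of those cells in this value was not tested. With each cell thinned to 2000 UMIs, 100%, 100%, 98.8% and 98.0% of Paneth-like cells had a Spink4 UMI, against 27.8%, 29.0%, 15% and 17.3% of enterocyte-like cells. Unthinned, the enterocyte-like shares were 87.1%, 87.1%, 85.1% and 76.8%.

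Muc2 was also found in more Paneth-like than enterocyte-like cells. It gave 279 and 269.8 CPM in Paneth-like cells in WT and KO of set 1, and 1389 and 849.7 in set 2. That is 8.21% to 20.2% of the goblet level. The highest value is from WT set 2, where the limit given above for Spink4 also holds. After thinning, 40.0%, 37.2%, 85.2% and 73.9% of Paneth-like cells had a Muc2 UMI, beside 3.13% to 4.85% of enterocyte-like cells (unthinned 97.6% to 100% and 21.8% to 37.6%). For Zg16 the ranges overlapped, with a UMI in 22.4% to 37.0% of thinned Paneth-like cells and 19.7% to 26.9% of enterocyte-like cells. Median depth was 35837 to 72503 UMIs in Paneth-like and 13905 to 24565 in enterocyte-like cells. Spink4 made 70.5% to 78.6% of the members' UMIs in Paneth-like cells and 13.2% to 22.8% in goblet-like cells.

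Enteroendocrine-like cells, the hormone-secreting cells, had more Tff3, Fcgbp and Agr2 than enterocyte-like cells. Tff3 gave 5342 and 7125 CPM in WT and KO of set 1, and 1402 and 1350 in set 2, which was 4.96% to 14.3% of the goblet level. It was found in 54.8% to 75% of thinned cells, beside 15.3% to 36.6% of enterocyte-like cells. Fcgbp gave 459 and 547 CPM in set 1 and 219 and 178 in set 2, and was found in 22.6% to 36.1% of thinned cells against 3.49% to 5.22% of enterocyte-like cells. Agr2 gave 665 and 796 CPM in set 1 and 637 and 739 in set 2, beside 88.2, 147, 44.9 and 46.4 in enterocyte-like cells, and was found in 22.0% to 38.9% of thinned cells against 8.72% to 16.4%. These rest on 32 to 59 cells per sample. In set 1 they include cluster 15, with 12 WT and 11 KO cells, in which 10 of the 17 goblet markers were at least 2-fold higher. Tff3 alone made 45.5% to 74.5% of their member UMIs, against 20.4% to 36.2% in goblet-like cells.

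In enterocyte-like cells the members lay at 0.209% to 2.62% of the goblet level. There Zg16 made 25.7%, 31.3%, 31.7% and 38.4% of the members' UMIs, beside 20.2%, 25.6%, 30.1% and 37.3% in goblet-like cells of the same samples, while Agr2 made 4.97% to 9.17%, beside 13.2% to 18.0%. T lymphocyte-like cells of set 2, which should lack these genes, had Zg16 at 697 and 1139 CPM, with 32.6% and 37.6% of the members' UMIs, and a median depth of 2857 and 2089 UMIs. After thinning, 64.4% and 76.2% of them had a Tff3 UMI, 41.4% and 47.2% an Agr2 UMI, 11.2% and 18.6% a Fcgbp UMI and 16.7% and 18.8% a Muc2 UMI. The Tff3 and Agr2 shares of enteroendocrine-like cells in set 2 were not above these. Their CPM was above the 537 and 791 of Tff3 and the 259 and 309 of Agr2 in T lymphocyte-like cells. The shares and the CPM thus differ, and whether enteroendocrine-like cells of set 2 express Tff3 and Agr2 was not tested. Zg16 at or below its level in T lymphocyte-like cells was not read as expression in any class. The source of these UMIs was not tested.

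Goblet-like cells fell into 2 clusters in each set. In clusters 12 (set 1) and 15 (set 2) the members made 19.2% to 22.2% of UMIs, and in clusters 14 (set 1) and 16 (set 2) 3.82% to 8.80%. The latter had more UMIs of 13 cycling markers, at 1454 to 2731 CPM against 96.6 to 265. Every tested member was higher in the first kind of cluster. The fold was 3.82 to 12.9 for Zg16 and 4.02 to 7.82 for Clca1, but 2.29 to 2.92 for Agr2, 2.28 to 4.29 for Tff3, 1.94 to 4.10 for Spink4, 2.40 to 4.66 for Muc2 and 2.69 to 4.78 for Fcgbp. The members were not among the genes clustered, but other goblet genes were, so this is a description with no test.

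**Figure D4:**
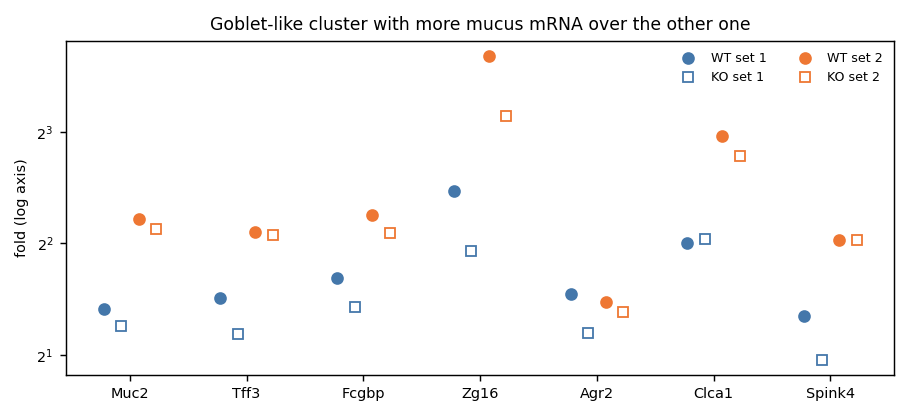
Fold (log axis) of CPM of 7 mucus genes between the goblet-like cluster richer in mucus mRNA and the other goblet-like cluster, for each sample. Zg16 spans 3.82 to 12.9 and Agr2 only 2.29 to 2.92.

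The same held cell by cell. Zg16 had the widest spread, with quartiles of 0.0384% and 3.45% of a cell's UMIs in WT set 1 and 0.0378% and 7.46% in WT set 2. Agr2 had quartiles of 0.572% and 2.27%, and 1.18% and 3.47%. Thinned to 2000 UMIs, 77.2% to 87.4% of goblet-like cells had a Zg16 UMI and 47.7% to 59.9% a Clca1 UMI, while Tff3 and Agr2 were found in at least 98.7%.

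For the miR-375 knockout, the question was whether the loss of this miRNA changed mucus genes within goblet-like cells. Zg16 was higher in KO in both sets, with log2 ratios of 0.63 and 0.47 from the levels given above, as were 1931 of the 10699 genes tested (18.0%). Over the 4 samples edgeR's quasi-likelihood test gave +0.59 (SE 0.37, 95% interval -0.33 to 1.52, adjusted p = 1.00), so Zg16 was not called. With the set as a block the difference was +0.61 (SE 0.05, interval 0.49 to 0.72) and Zg16 was called at adjusted p = 0.000523, among 26 of 10699 genes (0.243%). That fit leaves 1 residual degree of freedom per gene and borrows the rest from all genes. Within the 4 goblet-like clusters Zg16 was higher in KO by log2 0.33 and 0.39 in clusters 12 and 15, and by 0.87 and 0.93 in clusters 14 and 16. These clusters are parts of the same samples, so their values are not independent of the ratios per set. With a finer clustering the unblocked difference was +0.35.

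The share of goblet-like cells in the cluster richer in mucus mRNA was 40.7% in WT and 47.6% in KO of set 1, and 68.3% and 71.9% in set 2. The 17 goblet markers summed to 2801 and 3093 CPM in WT and KO of set 1, and 3513 and 3615 in set 2. Of these markers 15 of 17 were higher in KO and 0 were called, beside 49.2% higher and 0 called over all 10699 genes tested. Paneth markers, 7 of 9 higher and 0 called, and cycling markers, 3 of 13 higher and 0 called, were counted in the same fit, and the part of these values in the Zg16 difference was not tested.

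**Figure D5:**
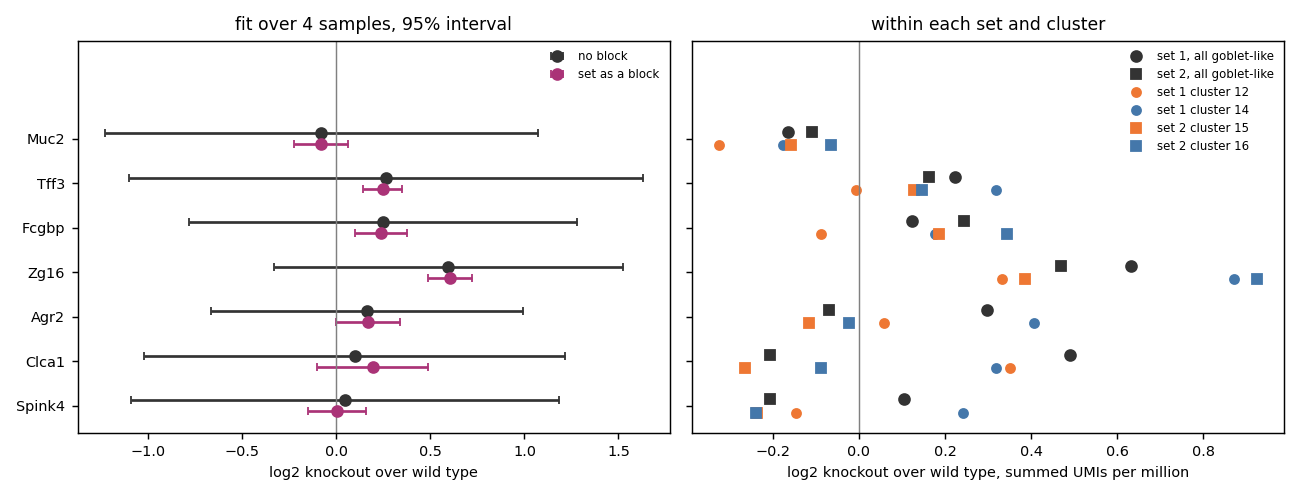
Log2 ratio of KO to WT for 7 mucus genes in goblet-like cells. Left, edgeR fits over 4 samples with 95% intervals, without and with the set as a block. Right, the ratio of summed CPM within each set and within each goblet-like cluster. All 6 Zg16 points on the right lie above 0, and the cluster points are parts of the same samples as the set points.

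No other member was called in goblet-like cells. Without the block, edgeR called 0 of 10699 genes in goblet-like cells (0%), while 95 had an unadjusted p under 0.05 and DESeq2 called 2. Tff3 was +0.26 (SE 0.55, interval -1.10 to 1.63), Fcgbp +0.25, Agr2 +0.16, Clca1 +0.10, Spink4 +0.05 and Muc2 -0.08 (SE 0.46, interval -1.23 to 1.07). The members' median was +0.16, beside -0.0034 over all genes tested. With the set as a block, Tff3 was +0.25 (adjusted p = 0.0589), Fcgbp +0.24 (adjusted p = 0.241) and Muc2 -0.08 (interval -0.23 to 0.06, adjusted p = 0.983). Within sets, Tff3 was 0.22 and 0.16 and Fcgbp 0.12 and 0.24, whereas Clca1 was 0.49 in set 1 and -0.21 in set 2, and Spink4 0.10 and -0.21. Muc2 was -0.16 and -0.11.

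The pathway lists were counted in KO goblet-like cells in the fit without the block only. That fit called 0 of 10699 genes, so no list could hold a called gene. Of 30 mucus machinery genes tested, 21 were higher, 9 lower and 0 called, beside 49.2% higher over all genes tested. Capn9, a calpain of the gut lining, was +0.46 (67.4, 80.1, 90.7 and 131 CPM), and Rep15 was +0.36 (254, 312, 337 and 421). Of the other mucins only 3 were tested. Muc3, a membrane mucin of enterocytes, was -0.76 (61.2, 26.6, 35.5 and 28.7 CPM) and Muc4 -0.74 (14.2, 6.53, 20.7 and 13.5), with neither called. Il4ra and Stat6, which relay interleukins 4 and 13, were -0.19 and -0.11. The adjusted p of each of these 6 genes was 1.00.

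In other epithelial cells the members' differences were as uncertain. In enterocyte-like cells edgeR called 0 of 10987 genes (0%; 95 at an unadjusted p under 0.05, 7 by DESeq2), and the members ran from -0.45 for Muc2 to +0.53 for Agr2, with SEs of 0.32 to 1.17. Over all epithelial cells 0 of 13091 genes were called (0%; 98 at an unadjusted p under 0.05, 6 by DESeq2), and Zg16 was +0.55 (SE 0.45) and Muc2 -0.11 (SE 0.55). In Paneth-like cells Spink4 was lower in KO in both sets, by log2 -0.47 and -1.14, as were Zg16 (-0.89 and -1.08), Fcgbp (-0.27 and -0.90), Clca1 (-0.46 and -2.11) and Muc2 (-0.05 and -0.71). Tff3 (0.28 and -0.64) and Agr2 (0.28 and -1.05) were higher in KO in set 1 and lower in set 2. Zg16 was higher in KO in both sets in enterocyte-like (0.67 and 0.02), stem-like (0.45 and 0.67), cycling (0.86 and 0.12) and tuft-like cells (0.58 and 0.79). In enteroendocrine-like cells it was 2.07 in set 1 and -0.27 in set 2. In set 2, Zg16 in these classes other than Paneth-like lay at 0.312% to 0.783% of its goblet level. It was at 1.94% (WT) and 2.29% (KO) in T lymphocyte-like cells, so its set 2 ratios there are not read as differences in expression. Other members also moved, such as Agr2 in stem-like (-0.10 and 1.72) and Muc2 in tuft-like cells (1.15 and -4.17). No test was made of these ratios within sets. Paneth-like cells of WT set 2 included cells with up to 10.7% member UMIs, and median depth was 62384 UMIs in WT and 35837 in KO of that set.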

How the data were processed

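The members and gene lists were chosen with earlier results of these data known. The deposited mRNA table holds normalized counts per gene, a signal that the authors had scaled per library before they deposited it. The submitters' processing notes name STAR, Salmon, DESeq2 and Cell Ranger and the build mm10, without their roles, and the sources used here do not give the scaling method. Only 46.8% to 55.7% of values were whole multiples (within 0.01) of a library's most frequent low value, so whole reads were not recovered and no count test was run on them. Rows without a gene name, 0.0338% to 0.0804% of each library's total, were left out. Values were tested as log2(value + 1) with limma 3.58.1 (trended prior, Benjamini-Hochberg adjustment, threshold 0.05) on genes with a mean of at least 10.

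The single-cell matrices hold UMI counts per gene and cell from 10x Chromium libraries, as the authors deposited them. Cells with at least 500 genes, 1000 UMIs and under 25% mitochondrial UMIs were kept. The highest Scrublet scores were removed as doublets (0.8% per 1000 barcodes), because its own threshold called only 0 to 11 cells a sample. Each set was clustered with scanpy 1.11.5 (2000 variable genes without the members, 30 components, Leiden resolution 1) and clusters were named from markers. Counts of each class were added up within a sample and tested with edgeR 4.0.16 (TMM, quasi-likelihood); DESeq2 1.42.0 was an alternative. Rates were also compared after thinning each cell to 2000 UMIs. Samples of the same set deviated together (r = 0.66), so the fit with the set as a block is given beside Zg16. All 8 members are named. List genes named were those called (at most 4 by adjusted p) or otherwise the 2 with the largest difference, and profile-like genes were the 8 with the highest r. Alternatives covered pseudocounts, filters, scaling, doublets, clustering, the block and leaving out each library.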

Additional observations from a re-analysis of the deposited data

Results flagged for a closer look

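Within groups of 4 libraries, a library was singled out when its gap to the nearest other library took most of the group's range (above Dixon's 95% critical value). For normally distributed values this singles out about 1 group in 20. The rule was applied to normalized counts without logs, so that rate may not hold here. It singled out 12 of 31 groups, which are not independent because the members rise and fall together. Conventionalized replicate 1 stood above the other 3 libraries of its group for all 8 members, with normalized counts of 23781 for Muc2, 139414 for Tff3, 58600 for Fcgbp, 287695 for Zg16, 23792 for Agr2, 52288 for Clca1, 14196 for Spink4 and 3.42 for Retnlb. For Retnlb the other libraries of that group were at 0, so the rule would single out any value above 0. Chow replicate 4 stood above its group for Fcgbp (18725), Zg16 (120876) and Clca1 (15280). High fat diet replicate 3 stood below its group for Clca1 (3773).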

How the results depend on the processing

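No member was called in 90 of 91 fits. The exception was the fit of goblet-like cells with the set as a replicate block, which called 1 member, Zg16 at +0.61. Zg16 in goblet-like cells was positive in all 14 fits (+0.35 to +0.83), which reuse the same samples. Of 336 member results under settings that kept every library, 319 kept direction and side of the threshold, 16 changed sign and 1 (Zg16, above) was newly called; of 252 that left out 1 library, 54 changed sign. The causes were not tested.

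Under quantile normalization, germ-free against conventionalized was +0.32 for Clca1 and +0.19 for Zg16, and high fat diet against chow was -0.12 for Agr2. For knockout against wild type in goblet-like cells, Clca1 was -0.0788 without doublet removal, and at Leiden resolution 2 Clca1 was -0.0833, Spink4 -0.14 and Agr2 -0.0384, while a gate on other goblet markers gave Spink4 -0.0465. In enterocyte-like cells without doublet removal, Spink4 was -0.12, Zg16 -0.30 and Tff3 -0.22, and Tff3 was -0.0778 with the replicate block. Over all epithelial cells Clca1 was -0.0039 with median-of-ratios size factors, -0.0078 with no filter, -0.0100 with DESeq2 and -0.14 without doublet removal.

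Leaving out each library or sample in turn, values ranged as follows. For germ-free against conventionalized mRNA, they ran from -0.30 to 1.20 for Tff3, -0.26 to 1.16 for Muc2, -0.68 to 1.14 for Clca1, -0.47 to 1.20 for Fcgbp and -1.003 to 1.001 for Zg16. For high fat diet against chow mRNA, they ran from -0.0373 to 0.54 for Agr2. For conventionalized against chow mRNA, they ran from -1.39 to 0.11 for Tff3, -1.28 to 0.14 for Muc2, -1.44 to 0.38 for Clca1, -1.08 to 0.58 for Fcgbp and -1.81 to 0.19 for Zg16. For knockout against wild type in goblet-like cells, they ran from -0.37 to 0.81 for Clca1, -0.48 to 0.43 for Spink4, -0.17 to 0.61 for Fcgbp, -0.59 to 0.42 for Muc2 and -0.37 to 0.84 for Tff3. For knockout against wild type in enterocyte-like cells, they ran from -1.25 to 1.65 for Spink4, -1.04 to 0.16 for Fcgbp, -0.74 to 1.32 for Zg16, -1.38 to 0.12 for Muc2, -0.51 to 1.16 for Agr2 and -2.12 to 1.91 for Tff3. For knockout against wild type in all epithelial cells, they ran from -0.58 to 1.01 for Clca1, -0.50 to 0.28 for Spink4, -0.23 to 0.79 for Fcgbp, -0.64 to 0.61 for Muc2, -0.16 to 0.55 for Agr2 and -0.31 to 0.76 for Tff3. The knockout difference in the share of goblet-like cells ranged from -0.16 to 0.41.

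Counts of genes called moved more. Germ-free against conventionalized gave 453 genes, 0 without a variance trend, 1672 with all 16 libraries fitted and 1 to 684 leaving out a library. High fat diet against chow gave 135, with 317 unfiltered, 0 without a trend, 33 with all 16 libraries, 271 with a replicate block and 0 to 2590 leaving out a library (2590 without chow replicate 2, 0 without any high fat diet library, chow replicate 1 or chow replicate 4). Conventionalized against chow gave 17, with 39 unfiltered, 31 at a mean of at least 50, 0 without a trend, 26 with all 16 libraries, 165 with a replicate block and 0 to 6 leaving out a library. Goblet-like cells gave 39 unfiltered, 26 with the block and 0 to 3 leaving out a sample, enterocyte-like cells 57 unfiltered. In the mRNA libraries, r between the deviations of same-numbered replicates ran from -0.35 to 0.46. That does not settle whether the numbers mark pairs, and the block called no member. The SE of Zg16 in goblet-like cells was 0.37 without the block and 0.05 with it.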
